A study of Arabidopsis thaliana with 10 samples.

Results

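The genes described here encode proteins of the cytosolic 40S ribosomal subunit, the small subunit of the ribosomes that translate nuclear mRNAs. They were chosen by locus code: 60 of the 32824 genes in the expression table, which are the gene copies (paralogues) for 24 small-subunit proteins, namely Sa, S2 to S16, S3a among them, S18 to S20, S23, S24, S28 and S30. They were put together with the result of the genotype comparison in view, so their differences between genotypes are given as a description, with no test.

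RNA was sequenced from shoots of Arabidopsis thaliana after 10 days on solid, diluted Murashige and Skoog medium with 1% sucrose and 1% agar. The 5 Col-0 libraries came from the wild-type accession Col-0. The 5 OE-11 libraries came from plants carrying 35S:BnaC02.TPS8, in which the constitutive 35S promoter drives BnaC02.TPS8, a gene of oilseed rape for a protein of the trehalose-6-phosphate synthase family. The sample titles give OE-11, the series description gives another line name, O2, and which line was sequenced is not settled by them. The libraries carry 1 line name, so that an effect of the transgene and one of its insertion in this line cannot be told apart. All plants shared the medium and the age, and no label tells whether samples of the same genotype were grown on separate plates, so the spread between libraries may be partly technical.

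The small subunit binds the mRNA, scans for the start codon and holds the decoding centre, where codons are matched with tRNAs. In plants each of its proteins is usually encoded by several gene copies, and all proteins are needed in equal numbers in a finished subunit. The promoters of plant ribosomal protein genes are known for site II elements, which TCP transcription factors bind, and for telo-boxes near the transcription start, and the genes are known to be expressed most in growing tissue.

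The members lay on all chromosomes, with 7 on chromosome 1, 8 on chromosome 2, 16 on chromosome 3, 6 on chromosome 4 and 23 on chromosome 5 of the TAIR10.1 reference. Their proteins had 62 to 332 residues. Among the 48 pairs of copies of the same protein, 6 encoded identical proteins, and the lowest identity was 65.1%, between the Sa copies. The copies stayed distinct in their nucleotides: coding identity had a median of 85.5%, from 74.5% between copies of S7 to 98.2% between those of S16. The S18 copies show this best, since all 3 encode the same protein of 152 residues and yet differed at 76 of 459 coding positions. The first 90 coding bases of each are shown 5′ to 3′ from the start codon, as read from RefSeq, with capitals at the 18 positions where the copies differ.
AT1G22780: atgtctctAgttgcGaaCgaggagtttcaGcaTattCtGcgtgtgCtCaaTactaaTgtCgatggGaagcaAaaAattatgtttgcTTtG
AT1G34030: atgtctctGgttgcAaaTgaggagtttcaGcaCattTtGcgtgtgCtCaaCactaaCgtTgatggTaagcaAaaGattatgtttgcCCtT
AT4G09800: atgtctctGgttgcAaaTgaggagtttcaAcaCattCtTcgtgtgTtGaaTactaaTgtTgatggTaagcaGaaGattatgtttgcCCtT

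The precision with which sequencing fragments can be given to a copy follows from such differences. Of the 60 members, 47 had at least 95% of their transcripts' 31-base words found in no other gene. The exceptions that matter below were the S2 copy AT1G58380, with 61.7% of its words unique and the rest shared with near-identical genes outside the members, and the S16 copies AT2G09990 and AT5G18380, with 76.3% and 79.6%. The leading S30 copy AT5G56670 had 83.6%, with the rest shared with its neighbour AT5G56660, and the S23 copies AT5G02960 and AT3G09680 had 92.4% and 91.3%, with the rest shared between them. The S19 copy AT5G15520 had 86.9%, with the rest shared with AT5G15530. The S12 copy AT2G32060 had 90.8%, with most of the rest shared with AT2G32050. The Sa copies AT1G72370 and AT3G04770 had 92.6% and 93.0%, and the S28 copy RPS28 (AT5G64140) had 92.2%. The S4 copies AT5G07090 and AT5G58420 had 94.98% and 94.1%. Levels of these copies, and ratios taken from them, are less certain than those of the 47 copies with at least 95%.

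The promoters, taken as 250 bases before to 50 bases after the annotated start, were searched on both strands for the site II letters TGGGCC and TGGGCT, with overlapping matches counted once, and for the telo-box AAACCCTA. A site II match was found in 66.7% of the members, against 21.7% of all 27443 protein-coding promoters of the same length and 38.5% of those of 1156 other genes with a mean of at least 100 FPKM. A telo-box was found in 51.7% of the members, against 6.22% of all promoters and 10% of the other genes at that level. Both stood in 38.3% of the members and neither in 20%. A telo-box overlapped a site II element in 1 member. FPKM, the unit of the deposited table, counts fragments relative to transcript length and library total.

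Site II elements of the members had a median position of -47 relative to the annotated start, with quartiles of -75.3 and -21 over 100 elements. Telo-boxes lay at the start itself, with a median of +2 and quartiles of -11 and 15 over 33 matches. The promoters below are those of the copies at the extremes of the values that follow. They are given 5′ to 3′ on the gene's strand from TAIR10.1, by the coordinates of its RefSeq annotation, with capitals at site II and telo-box letters. The first belongs to the member with the largest log2 difference between genotypes, the next to the member with the largest and the one with the smallest difference among those above 50 FPKM, and the last to the S23 copies, which are farthest apart in level.
S11 copy AT4G30800, chr4:15000710-15001009, plus strand: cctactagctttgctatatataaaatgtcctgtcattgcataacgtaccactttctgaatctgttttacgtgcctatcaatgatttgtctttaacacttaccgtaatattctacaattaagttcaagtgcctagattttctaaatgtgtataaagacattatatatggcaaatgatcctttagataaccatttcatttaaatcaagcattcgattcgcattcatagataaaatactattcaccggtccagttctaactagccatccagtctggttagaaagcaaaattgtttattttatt
S15 copy AT5G09510, chr5:2956634-2956933, minus strand: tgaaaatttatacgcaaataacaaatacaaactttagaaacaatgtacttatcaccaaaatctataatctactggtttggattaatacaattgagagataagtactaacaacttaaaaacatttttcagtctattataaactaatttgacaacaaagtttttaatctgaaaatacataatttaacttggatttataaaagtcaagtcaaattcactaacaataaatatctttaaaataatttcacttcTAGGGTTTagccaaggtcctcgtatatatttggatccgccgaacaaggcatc
S18 copy AT4G09800, chr4:6173462-6173761, plus strand: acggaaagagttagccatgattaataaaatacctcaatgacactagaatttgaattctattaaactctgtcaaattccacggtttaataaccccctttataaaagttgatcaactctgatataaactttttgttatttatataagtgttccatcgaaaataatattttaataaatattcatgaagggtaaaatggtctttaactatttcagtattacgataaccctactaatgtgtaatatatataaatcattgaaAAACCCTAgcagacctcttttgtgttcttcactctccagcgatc
S23 copy AT3G09680, chr3:2970322-2970621, minus strand: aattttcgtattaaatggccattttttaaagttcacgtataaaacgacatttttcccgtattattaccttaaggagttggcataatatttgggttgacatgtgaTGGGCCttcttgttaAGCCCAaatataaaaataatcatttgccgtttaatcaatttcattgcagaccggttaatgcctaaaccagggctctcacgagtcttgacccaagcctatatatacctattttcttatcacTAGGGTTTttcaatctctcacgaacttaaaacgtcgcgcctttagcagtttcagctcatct
S23 copy AT5G02960, chr5:694466-694765, minus strand: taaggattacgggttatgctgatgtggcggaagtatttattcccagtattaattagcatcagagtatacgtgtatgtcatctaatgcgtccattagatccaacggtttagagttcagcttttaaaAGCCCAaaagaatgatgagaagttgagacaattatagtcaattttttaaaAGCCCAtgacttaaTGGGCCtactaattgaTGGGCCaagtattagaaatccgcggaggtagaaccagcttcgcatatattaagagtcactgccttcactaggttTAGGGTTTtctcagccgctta
The S11 copy with the largest difference held neither motif. The S15 and S18 copies with the largest and the smallest difference each held 1 telo-box and no site II element. The S23 copy listed below 1 FPKM held 2 site II elements and 1 telo-box, and its abundant sister held 4 and 1. The S16 copies, among them the most abundant member, held neither. A match is a description of letters in this window and not a measured binding site.

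**Figure D1:**
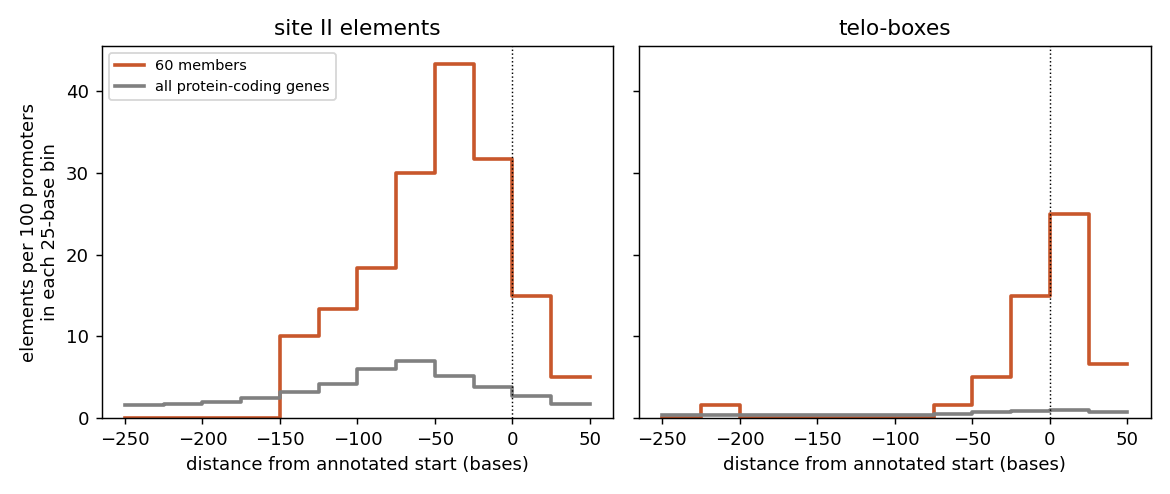
Site II elements (left) and telo-boxes (right) per 100 promoters in 25-base bins, against the distance in bases from the annotated transcription start, for the 60 members and for all protein-coding genes. Elements of the members lie mostly in the last 100 bases before the start (site II, median -47) and around it (telo-box, median +2).

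The libraries held an estimated 1.86e+07 to 2.36e+07 fragments each, from the smallest steps between low values and an assumed fragment length of 200 nt. The leaf markers were abundant, with summed levels of 60928 to 69578 FPKM in Col-0 and 61404 to 69871 FPKM in OE-11, and the 7 root markers summed to at most 0.766 FPKM in any library, with LRX1 listed at 0 in all, as the shoot label would have it. The transgene has no row in a table of Arabidopsis loci. Its Arabidopsis relative TPS8 (AT1G70290) lay between 67.1 and 96.0 FPKM in Col-0 and between 30.2 and 53.5 FPKM in OE-11. Plastid transcripts took 0.552% to 4.28% of the FPKM in Col-0 and 0.442% to 2.90% in OE-11, most in Col-0 4, Col-0 2 and OE-11 4.

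Transcripts of the 40S proteins were higher in OE-11 shoots, by much the same factor for nearly every gene copy. The members together took 1.56%, 1.43%, 1.28%, 1.40% and 1.44% of all FPKM in Col-0 1 to 5, and 1.89%, 1.98%, 1.74%, 1.87% and 1.98% in OE-11 1 to 5. Every OE-11 library lay above every Col-0 library in this sum. In bulk shoots, a change in the number of cells that express a gene and a change in the RNA of each cell cannot be told apart. Of the 60 members, 58 had a mean of at least 1 FPKM over the libraries and entered the fit. Of these, 53 passed limma's adjusted p of 0.05, all higher in OE-11, where 2.89% of all 17713 tested genes passed, 2.37% as higher and 0.525% as lower. Because the members were chosen with this contrast in view, nothing is read from that count.

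Their ratios of OE-11 to Col-0 had a median of 1.35, and the log2 differences, on the log2(FPKM + 1) scale here and below, had a median of 0.44 with quartiles of 0.39 and 0.46. The median over all tested genes was 0.0032. The standard error of a single member's difference had a median of 0.069. Of the 58, 56 had a log2 difference between 0.3 and 0.6. The SD of the log2 differences was 0.062 over the 48 members with a mean of at least 100 FPKM, and 0.39 over the 1217 other genes at that level, whose median was 0.030. The groups did not overlap in 55 members, against 4.41% of all tested genes with all OE-11 libraries above all Col-0 libraries and 1.42% with all below.

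Without the 3 libraries highest in plastid RNA, an alternative chosen after seeing the data, no gene of the table passed the adjusted threshold in limma and so no member did. The members' median log2 difference was then 0.45, and 55 of the 58 had an unadjusted p under 0.05. The part of plastid RNA in the result was not tested beyond this value. The 10 markers of dividing or meristematic cells, among them the mitotic cyclin CYCB1;1 and the meristem gene STM, all had log2 differences above 0, from 0.095 to 0.27, none of which passed limma's adjusted threshold or an unadjusted p of 0.05. Their summed levels were 101 to 158 FPKM in Col-0 and 130 to 158 FPKM in OE-11. Without Col-0 3, 8 of the 10 markers lay above 0, with a lowest difference of -0.11 and a median of 0.065, against 0.15 with all libraries. Without OE-11 4, 9 of these markers lay above 0. Without OE-11 5 all 10 did, with a median of 0.21 and 3 at limma's unadjusted p under 0.05. Without Col-0 1 all 10 did, with a median of 0.20 and 1 at that p. Their part in the result was not tested.

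**Figure D2:**
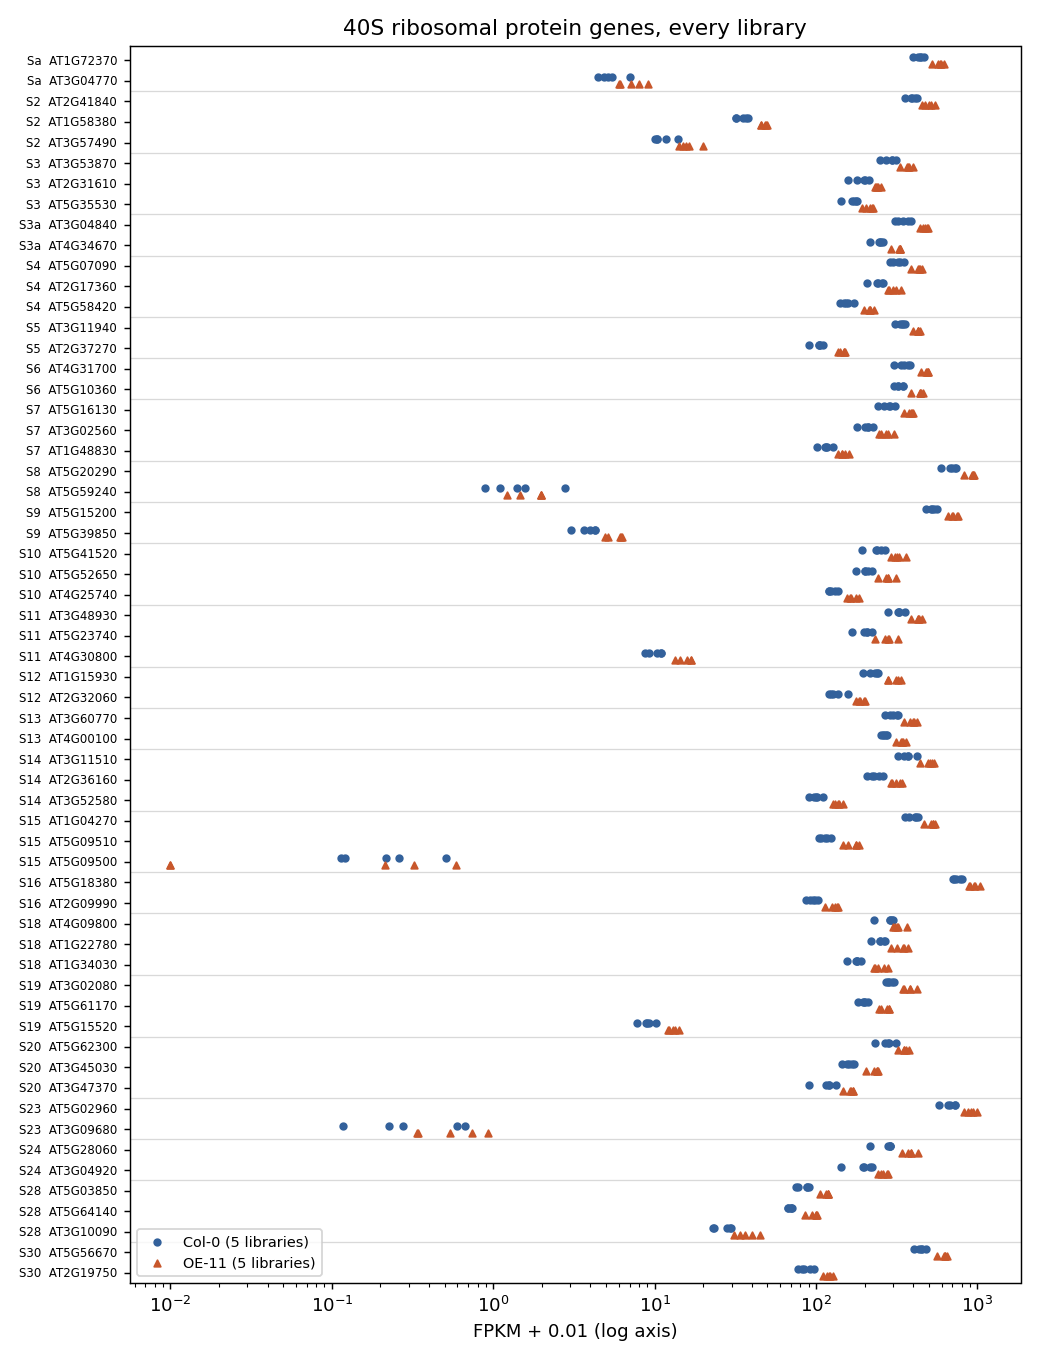
FPKM of each of the 60 members in every library, on a log axis with 0.01 added so that values listed at 0 can be drawn; each row is a gene copy, grouped by protein, with 5 Col-0 libraries as circles and 5 OE-11 libraries as triangles. In 55 rows all triangles lie to the right of all circles, and 8 copies have means under 20 FPKM.

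By position in the subunit, as known from yeast and human ribosome structures, the 10 proteins of the head (S3, S5, S10, S12, S15, S16, S18 to S20 and S28) and the 14 of the body and platform had the same median log2 difference, 0.44 over 26 tested members and 0.44 over 32. Summed over the members of each protein, Col-0 levels ran from 179 ± 7 FPKM for S28 to 844 ± 42.8 FPKM for S16 (SD, n = 5), a 4.71-fold range among proteins needed in equal numbers. FPKM is relative to transcript length, in TAIR10.1 538 to 965 nt for the S28 copies and a median of 582 nt for the S16 copy AT5G18380. Genes of the same proteins outside the members are not in these sums. The ratio of OE-11 to Col-0 for these sums ran from 1.28 for S3 and S16 to 1.39 for S30, with a median of 1.34. This ratio is taken within a protein, so its range is not comparable with that of levels between proteins. In all 24 proteins the OE-11 sums lay above all Col-0 sums. The members were chosen with this contrast in view, and 55 of them did not overlap singly, against 4.41% of all tested genes as higher. Nothing is therefore read from this count.

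Among proteins of the head, S16, whose tail reaches the peptidyl-tRNA in known structures, had the most abundant member. AT5G18380 was at 798, 718, 711, 776 and 742 FPKM in Col-0 1 to 5 and at 886, 956, 899, 971 and 1038 FPKM in OE-11 1 to 5, a log2 difference of 0.34 (SE 0.056). The groups did not overlap, and the fold was below the members' median.

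S15 reaches the decoding centre with its tail. Its leading copy AT1G04270 was at 431, 412, 356, 416 and 378 FPKM in Col-0 and at 533, 528, 469, 519 and 549.9 FPKM in OE-11, a log2 difference of 0.38 (SE 0.065). Its lesser copy AT5G09510, which differs from it in 1 of 152 residues, was at 124, 117, 114, 104 and 107 FPKM in Col-0 and at 183, 177, 146, 158 and 178 FPKM in OE-11, a log2 difference of 0.57 (SE 0.075). Neither copy's groups overlapped, and the lesser copy had the second highest difference among all members. The remaining copy, AT5G09500, did not exceed 0.579 FPKM in any library and was listed at 0 in OE-11 4 and 5.

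S20 sits in the head near the mRNA entry side. Its copies AT5G62300 and AT3G45030 encode identical proteins. The leading copy AT5G62300 was at 281, 285, 231, 315 and 269 FPKM in Col-0 and at 352, 350.3, 322, 359 and 379 FPKM in OE-11, a log2 difference of 0.36 (SE 0.078). AT3G45030 was at 172, 156, 144, 167 and 160.4 FPKM in Col-0 and at 228, 240.2, 204, 242 and 239 FPKM in OE-11, a log2 difference of 0.52 (SE 0.066). Both copies were higher in every OE-11 library, and their ratio to each other also did not overlap between genotypes.

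S18 contacts the large subunit and was the protein whose abundant copies differed most. AT4G09800 (RPS18C) was at 294, 286, 229, 299 and 289 FPKM in Col-0 and at 299, 316, 308, 323 and 369 FPKM in OE-11, a log2 difference of 0.21 (SE 0.083). Its groups overlapped, since OE-11 1 lay within the Col-0 range, and it did not pass limma's threshold. AT1G22780 (PFL), known from a mutant with pointed first leaves, was at 267, 249, 218, 263 and 249 FPKM in Col-0 and at 316, 347, 290.1, 353 and 369 FPKM in OE-11, a log2 difference of 0.42 (SE 0.078). AT1G34030 was at 181, 191, 156, 181 and 177 FPKM in Col-0 and at 233, 263, 229, 241 and 279 FPKM in OE-11, a log2 difference of 0.49 (SE 0.072). RPS18C thus gave 39.6% ± 0.962 of the S18 transcripts in Col-0 and 35.6% ± 1.17 in OE-11 (SD, n = 5), a difference of -3.92 percentage points. It lay between -4.33 and -3.55 points when any single library was left out. S18 was the only protein of the 24 whose leading copy's share did not overlap between genotypes. RPS18C was the highest S18 copy in all 5 Col-0 libraries, while PFL was the highest in 4 of the 5 OE-11 libraries. In OE-11 5 these copies were nearly equal, with PFL at 369.2 and RPS18C at 368.7 FPKM.

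**Figure D3:**
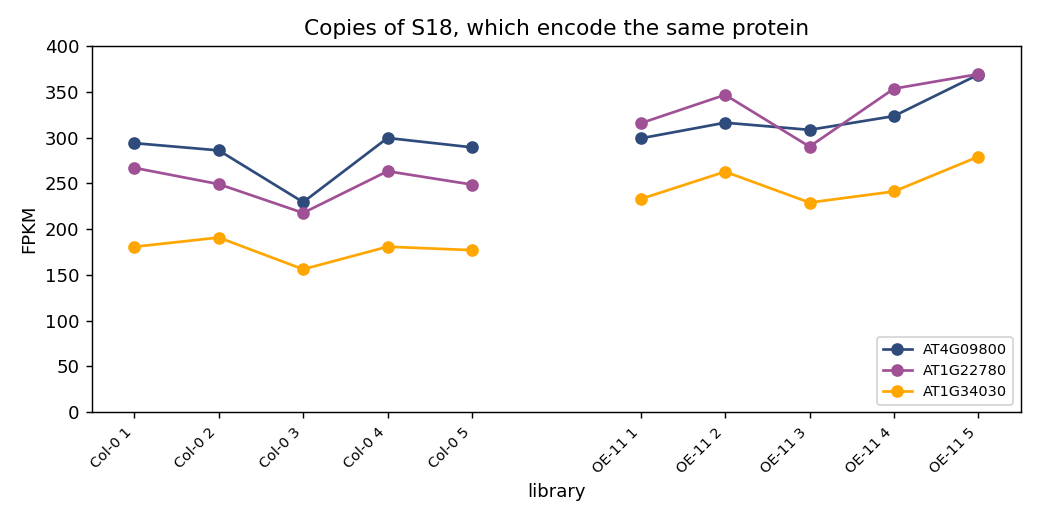
FPKM of the S18 copies AT4G09800 (RPS18C), AT1G22780 (PFL) and AT1G34030 in each library, on an axis from 0; lines join the libraries of a genotype only to make each copy easy to follow. RPS18C lies above PFL in all 5 Col-0 libraries and in 1 of 5 OE-11 libraries, and is nearly equal to it in OE-11 5.

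The S5 copies RPS5A and RPS5B encode a protein at the mRNA exit side of the head. RPS5A (AT3G11940), which Arabidopsis embryos are known to need, was at 354, 348, 307, 341 and 333 FPKM in Col-0 and at 438, 429, 398, 427 and 429.7 FPKM in OE-11, a log2 difference of 0.33 (SE 0.051). RPS5B (AT2G37270) went from 103 ± 7.38 to 145 ± 6.33 FPKM (SD, n = 5), a log2 difference of 0.49 (SE 0.061). The share of RPS5A was 76.5% ± 0.475 in Col-0 and 74.5% ± 0.978 in OE-11, with overlapping groups.

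Of the S12 copies, which lie in the beak of the head, AT2G32060 was at 157, 138, 120.1, 128 and 124 FPKM in Col-0 and at 184, 200, 178, 186 and 197 FPKM in OE-11, a log2 difference of 0.50 (SE 0.074). S10 had log2 differences of 0.41 to 0.45 over its 3 copies, S19 of 0.40 to 0.48 and S28 of 0.46 to 0.47. All 3 copies of S3, at the mRNA entry, lay below the members' lower quartile, at 0.34 to 0.37. The S28 copy AT3G10090, at 26.7 ± 3.24 and 37.2 ± 5.42 FPKM in Col-0 and OE-11 (SD, n = 5), did not pass limma's threshold although its groups did not overlap.

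In the body, S8 had the second most abundant member. AT5G20290 was at 723, 698, 595, 735 and 679 FPKM in Col-0 and at 935, 949, 825, 922 and 943 FPKM in OE-11, a log2 difference of 0.42 (SE 0.065). Its sister AT5G59240 was at 2.76, 1.40, 1.10, 1.56 and 0.882 FPKM in Col-0 and at 1.46, 1.96, 1.21, 1.96 and 1.96 FPKM in OE-11, a log2 difference of 0.13 (SE 0.18). These groups overlapped fully at this depth, and the difference between the copies, 0.29 (SE 0.16), was under 2 standard errors.

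S11 had the member with the highest log2 difference. EMB1080 (AT3G48930) was at 357, 326, 279, 326 and 322 FPKM in Col-0 and at 426, 434, 387, 426 and 452 FPKM in OE-11, a log2 difference of 0.40 (SE 0.068). AT4G30800 was at 11, 10.9, 8.70, 9.15 and 10.4 FPKM in Col-0 and at 15.9, 16.9, 13.4, 14.4 and 16.8 FPKM in OE-11, a log2 difference of 0.58 (SE 0.090). The groups of both copies were apart, although AT4G30800 gave only a small part of the S11 transcripts.

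S4 had a smaller difference in 1 of its 3 copies. AT2G17360 was at 259, 242, 207, 256 and 239.8 FPKM in Col-0 and at 285, 314, 280.1, 299.9 and 337 FPKM in OE-11, a log2 difference of 0.33 (SE 0.073), and AT5G07090 and AT5G58420 had differences of 0.44 and 0.47. S6, which S6 kinase phosphorylates in the TOR pathway, had 0.46 for RPS6 (AT4G31700) and 0.41 for EMB3010 (AT5G10360). S6K2 and the other 3 tested genes of this kinase and of the TOR complex had log2 differences from -0.13 to 0.15. None of them passed limma's threshold or its unadjusted p of 0.05.

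The remaining body and platform proteins differed little from each other. Log2 differences were 0.41 and 0.37 for Sa, 0.34 to 0.49 for S2, 0.41 and 0.44 for S3a, 0.36 to 0.45 for S7, 0.45 and 0.48 for S9, 0.35 and 0.39 for S13, and 0.44 to 0.45 for S14. They were 0.44 and 0.50 for S24, 0.46 and 0.48 for S30, and 0.43 for the S23 copy AT5G02960. The S24 copy AT3G04920 (195 ± 31.1 FPKM in Col-0, 262 ± 15.8 FPKM in OE-11; SD, n = 5) and the Sa copy AT3G04770 (5.38 ± 1.00 and 7.27 ± 1.33 FPKM) did not pass limma's threshold. Groups overlapped in AT3G04770, as in AT5G59240 and RPS18C, and in no other tested member.

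**Figure D4:**
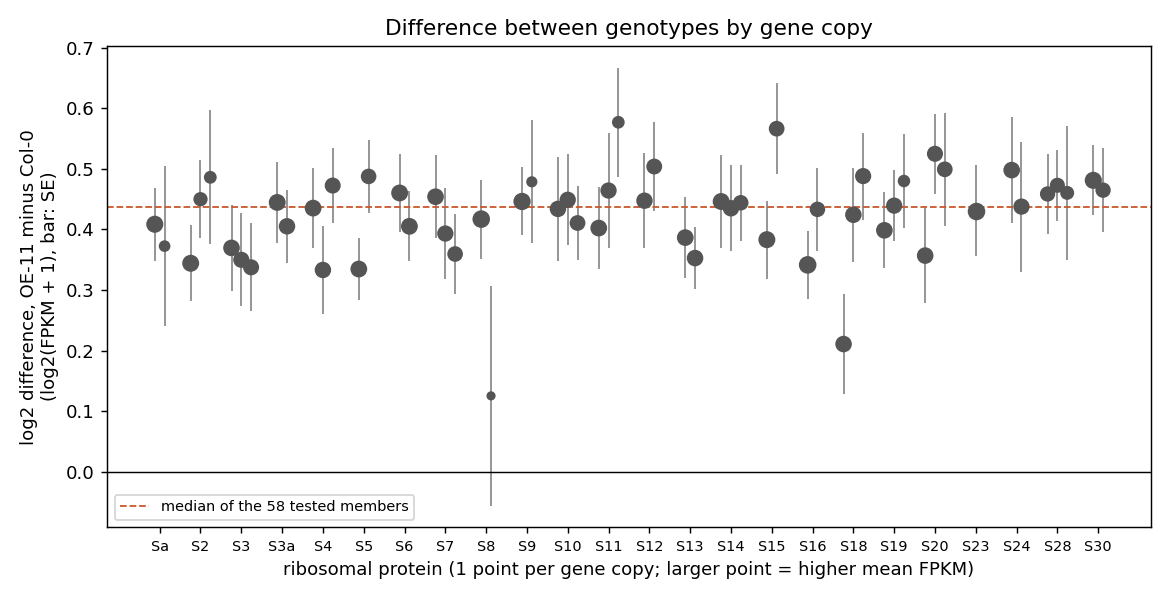
Log2 difference of OE-11 minus Col-0 on the log2(FPKM + 1) scale for the 58 tested members, by protein, with copies in order of level and bars of 1 SE; the dashed line is the members' median of 0.44. All points lie above 0, and the S8 copy AT5G59240 (0.13) and the S18 copy AT4G09800 (0.21) lie lowest. With 0.1 in place of 1 added to FPKM, the lowest difference of any tested member was 0.21.

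Among the members, paralogues of the same protein had nearly the same difference in most cases. The members were chosen with this contrast in view, and copies outside them are not counted here. The S16 gene AT3G04230, outside the members, had 0.058, beside 0.34 and 0.43 for the S16 members. The S2 genes AT1G59359, AT1G58684 and AT1G58983, also outside, had 0.50 to 0.54, beside 0.34 to 0.49 for the S2 members. Over the 23 proteins with at least 2 tested copies, the highest and the lowest log2 difference lay a median of 0.060 apart, and 15 proteins had a spread under 0.1. The widest spreads among the members were 0.29 for S8 (SE 0.16), 0.28 for S18 (SE 0.046), 0.18 for S15 (SE 0.065), 0.17 for S11 (SE 0.052) and 0.17 for S20 (SE 0.052). The place of S8 depends on the 1 added to FPKM, since its copy AT5G59240 had a mean of 1.62 FPKM. With 0.1 added instead, the lowest difference of any tested member was 0.21, against 0.13. When any single library was left out, the S18 spread stayed between 0.25 and 0.30, and that of S8 between 0.16 and 0.39. The ratio of the copies concerned did not overlap between genotypes in 3 of the 23, which were S7, S18 and S20. These pairs were picked by the difference itself, which favours ratios without overlap, so they have no test. No share over pairs of other genes was computed.

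The levels of paralogues relative to each other were not used to choose the members. For each protein the copy with the highest mean was compared with the next within the 10 libraries by an exact two-sided sign-flip permutation test on log2(FPKM + 1), adjusted by Benjamini-Hochberg over 24 proteins. The leading copy was defined on the same libraries, so the direction of each comparison is fixed by the choice. An error in transcript length or in giving fragments to a copy would recur in every library. The test cannot tell such an error from a lead, and its p describes only how constant the order of FPKM was. In 23 proteins the leading copy was higher in 10 of 10 libraries, with an adjusted p of 0.00204, from the smallest p that the permutation can give (0.00195). In S18 RPS18C was above PFL in 6 of 10 libraries, by a mean log2 ratio of 0.057 (SE 0.042; exact permutation p = 0.203, the same after adjustment).

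The lead ran from slight to nearly complete. In 4 proteins the leading copy gave over 90% of the members' transcripts in Col-0, with 98.8% ± 0.157 for Sa, 99.8% ± 0.0944 for S8, 99.3% ± 0.0901 for S9 and 99.9% ± 0.0312 for S23 (SD, n = 5). The S23 copy AT5G02960, whose protein is known to line the decoding centre, was at 731, 678, 576, 731 and 657 FPKM in Col-0 and at 872, 944, 822, 909 and 997 FPKM in OE-11. The other S23 copy, AT3G09680, was at 0.584, 0.265, 0.108, 0.662 and 0.217 FPKM in Col-0 and at 0.330, 0.530, 0.912, 0.728 and 0.325 FPKM in OE-11. The means were 1699-fold apart over the 10 libraries, with 95.8% identity between the proteins. The ratio was 493 for S8, 129 for S9, 80.3 for Sa, 10.9 for S2, 7.57 for S16 and 5.14 for S30.

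At the other end, the leading copy gave less than 50% of the protein's transcripts in Col-0 in 7 proteins, each with 3 copies. Neighbouring copies were close in S6 (RPS6 over EMB3010, 1.08-fold), S13 (AT3G60770 over RPS13A, 1.15-fold), S10 (RPS10B over AT5G52650, 1.16-fold) and S28 (AT5G03850 over RPS28, 1.20-fold). Even there the order of FPKM was the same in 10 of 10 libraries, which an error shared by all libraries would also give. The copies of Sa, S8, S9 and S23 that differed most in level had 65.1% to 95.8% protein identity, and the S30 copies, 5.14-fold apart, encode identical proteins. For S2 and S30 the ranking holds among the members alone, since AT1G59359, AT1G58684 and AT1G58983, S2 genes outside the members, had 95.5 to 97.0 FPKM in Col-0, and the S30 gene AT4G29390 had 139 FPKM.

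**Figure D5:**
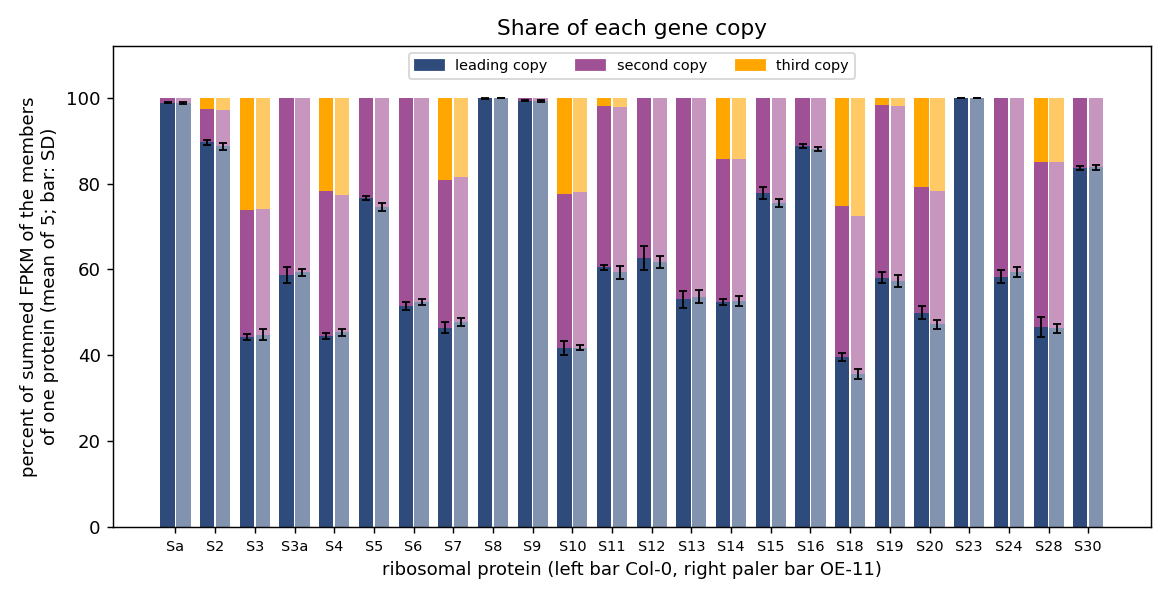
Percent of the summed FPKM of each protein's members given by the leading copy (darkest) and the others, stacked in order of level, as the mean of 5 libraries, with the left bar for Col-0 and the right, paler bar for OE-11; black bars are the SD of the leading copy's share. The shares are nearly alike in both genotypes, and S18 has the widest change, from 39.6% to 35.6%.

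Within each genotype the members also varied together from library to library. Col-0 3 was the lowest Col-0 library for 48 of the 58 tested members and Col-0 1 the highest for 42. OE-11 3 was the lowest OE-11 library for 49 and OE-11 5 the highest for 33. The deviations from the genotype mean over the 10 libraries had a median pairwise correlation of 0.80 among the 48 members with at least 100 FPKM and of 0.071 among the 1217 other genes at that level. All these values share the libraries, so the members are not independent of each other. The size of the variation was ordinary, with a median coefficient of variation of 8.01% in Col-0 and 6.46% in OE-11, against 8.01% and 7.05% for the other genes.

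Other 40S genes outside the members were also higher in OE-11. Of 41 such genes, 39 had a row in the table and 34 were tested. Of these, 30 rose and none fell by limma's adjusted threshold, where 2.37% of all tested genes passed as higher and 0.525% as lower, with a median log2 difference of 0.40. This list too was drawn up with earlier results of these data known. The scaffold protein RACK1, which sits on the head, rose in all 3 genes, by 0.34 (SE 0.055) for RACK1A (AT1G18080), 0.57 for RACK1B (AT1G48630) and 0.61 for RACK1C (AT3G18130). All S17, S21, S26, S27, S27a and S29 genes tested rose. The 4 that did not pass were the S15a genes AT2G19720 (0.22) and AT4G29430 (0.27), the S25 gene AT4G34555 (0.27) and the S16 gene AT3G04230 (0.058). AT3G04230 was at 11.1 ± 1.60 FPKM in Col-0 and 11.5 ± 0.569 FPKM in OE-11 (SD, n = 5). Without the 3 libraries highest in plastid RNA none of the 34 passed, with a median of 0.42 and 31 at an unadjusted p under 0.05.

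Of 13 factors that assemble the 40S subunit in the nucleolus and cytoplasm, all were tested. By limma's adjusted threshold 2 rose, beside 2.37% of all tested genes. These were SWA1, which acts in processing of the small-subunit rRNA, from 5.85 ± 0.722 to 8.61 ± 1.10 FPKM, and IMP4 from 10.9 ± 2.09 to 16.4 ± 2.10 FPKM (SD, n = 5; limma). The median log2 difference of the 13 was 0.29, with all above 0. At limma's unadjusted p under 0.05 there were 10 of the 13, beside 2682 of all 17713 tested genes. Their summed levels were 103 to 130 FPKM in Col-0 and 153 to 168 FPKM in OE-11. The count past the adjusted threshold was 0 or 1 without any single library other than Col-0 1. Of the nuclear genes for small-subunit proteins of plastid ribosomes, 0 of 12 tested passed limma's threshold and 0 passed an unadjusted p of 0.05. Their median log2 difference was 0.053. It was -0.056 after quantile normalization. Site II letters were found in 76.9% of these 13 plastid promoters and telo-boxes in 15.4%, against 71.8% and 43.6% of the 39 promoters of other 40S genes.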

How the data were processed

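The deposited values are FPKM, which the authors had scaled by transcript length and library size, with 32824 genes in rows and each sample in a column. Tools named without a role, per the submitters' processing notes, were Trimmomatic 0.36, kallisto 043.1, sleuth, FastQC and R 3.5.1. The sources used here do not give the genome build. The table holds no counts, so no interval from counting error was computed.

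The 17713 genes with a mean of at least 1 FPKM entered a limma fit (limma 3.58.1, R 4.3.3) of log2(FPKM + 1), with the genotype as the only term, a trend of variance with level, and Benjamini-Hochberg adjustment over all tested genes, two-sided. The scale understates changes of low genes. limma and the sign-flip test were tested on simulated data. Promoters, coding sequences and shared words of 31 bases came from TAIR10.1 RefSeq, joined by locus code. All standard errors are limma's, other than those of ratios within libraries.

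Members and gene lists were chosen with earlier results of these data known. Values in every library are given for the 2 most abundant members, the 4 largest and 4 smallest log2 differences, and the most divergent copies of the 5 proteins with the widest spread; the S23 copies and PFL were added after their values were seen. Alternatives were other pseudocounts, filters and scalings, no trend, a replicate block, and leaving out libraries. Replicate numbers were not used as pairs in the main fit. Correlations of same-numbered samples were 0.20, -0.038, -0.086, 0.074 and 0.18, and samples numbered 1 and 5 were each other's best match. With a replicate block, 592 of all tested genes passed as higher and 189 as lower, against 419 and 93 in the main fit. Whether the numbers mark shared handling was not tested.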

Additional observations from a re-analysis of the deposited data

Results flagged for a closer look

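In groups of 5 libraries, the highest or lowest value of a member was checked for a gap to its nearest neighbour above 0.71 of the group's range. This held in 7 of 120 groups of members and 3 of 48 groups of leading-copy shares, and chance gives about 1 in 20. All 7 members had a library far below the other 4. In OE-11 3 these were the S3a copy AT4G34670 at 294 FPKM, RPS5A (AT3G11940) at 398 FPKM, the S6 copy AT5G10360 at 390.002 FPKM, the S8 copy AT5G20290 at 825 FPKM and the S30 copy AT5G56670 at 559 FPKM. In Col-0 3 they were RPS18C (AT4G09800) at 229 FPKM and the S24 copy AT5G28060 at 218 FPKM. OE-11 3 and Col-0 3 were the lowest libraries of their genotypes for most members. Of the shares, that of the leading S5 copy was 76.2% in OE-11 1, above the other OE-11 libraries. The leading share of S7 was 46.2% in OE-11 5, below the others, and that of S19 was 59.6% in OE-11 5, above them.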

How the results depend on the processing

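The members' median log2 difference stayed between 0.35 (quantile normalization) and 0.47 (without OE-11 3) under all 20 alternatives. The medians of the other 40S genes and the assembly factors also stayed above 0, while that of the plastid genes went from 0.053 to -0.056 after quantile normalization. The genotype difference in the leading copy's share changed sign without a single library in 8 of the 24 proteins, among them S10, from -0.61 to 0.47 percentage points. The number of members past the threshold was 53 with a replicate block, where 31 other 40S genes, 2 assembly factors and 0 plastid genes passed. It was 48 without a filter or without the trend, 49 after quantile normalization and 39 to 52 with 1 library left out, lowest without OE-11 2. Of the 53 called members, 39 kept the call in each of the 10 fits that left out 1 library, and 14 lost it in at least 1. Other 40S genes numbered 21 to 30 in these fits. Assembly factors numbered 0 to 2 in these fits, 0 without a filter, and 1 without the trend or with a pseudocount of 0.1 or 0.5. Without the 3 libraries highest in plastid RNA, chosen after seeing the data, 0 members, 0 other 40S genes and 0 assembly factors passed; fewer samples entered that fit, and otherwise the cause was not tested. Leaving out organelle genes and rescaling, also chosen after seeing the data, gave 52 members. Quantile normalization lowered the log2 difference of 16 members by more than their spread. The number of proteins with a leading copy, 23, was the same in 13 alternatives. Depth limits the copies under 2 FPKM, whose values rest on few fragments.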
